A study of Capra hircus with 3 samples.

Results

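Gene expression in the back muscle longissimus dorsi was compared between the adult goat (24 months) and the kid (2 months), as the net difference across postnatal growth. The comparison covers 12121 of the 24689 entries of the deposited expression table (49.1%), those whose FPKM averaged 1 or more across all 3 libraries. FPKM is the number of sequenced fragments, scaled to the length of the gene and to all fragments mapped. The difference was taken as log2(FPKM + 1) of the adult minus that of the kid, and gene families were read from the product names in the table.

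The study sequenced RNA of Capra hircus longissimus dorsi from the kid, from a youth stage (9 months) and from the adult, each as a single library. The labels name no breed, sex, treatment or number of animals for any of them. The youth library is used here only as the point between. With 1 library per age no test between ages was possible, and every value below compares these libraries. The ratio of each named gene carries an exact 95% interval worked out from the reads recovered from the FPKM values, which covers counting error only.

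Longissimus is a large postural and locomotor muscle with a mixture of fast and slow fibres. After birth its fibres grow in girth without dividing. Their nuclei switch from developmental to mature isoforms of contractile and metabolic proteins, and the supply of energy shifts with use. Mitochondria burn pyruvate and fatty acids through the citrate cycle and the respiratory chain, and the coactivator PGC-1 alpha, with the ERR nuclear receptors, is the best-known switch for building them. Ribosomes set the capacity for protein synthesis, while FOXO factors drive the ubiquitin ligases of muscle breakdown.

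The read totals behind the FPKM values were inferred from the values themselves, at 15829474 in the kid, 14920689 in youth and 18399385 in the adult. The 10 most abundant entries held 19.3%, 21.3% and 22.2% of the summed FPKM. All 11 markers of striated muscle fibres were tested, and their summed FPKM was 59562, 68647 and 75877. The protocol label names mammary tissue while the tissue label gives longissimus dorsi. Each library listed the casein genes CSN1S1, CSN1S2, CSN2 and CSN3 at 0, and LALBA too, and 1 of the 10 mammary markers, KRT18, passed the filter, at 3.11 FPKM in the kid, 1.44 in youth and 1.17 in the adult. An entry with the product name keratin 8, not counted in that list, stood at 8.06, 2.95 and 2.88 FPKM, 2.80-fold lower in the adult, and the part of epithelial cells in any result was not tested. Hemoglobin genes were nearly absent from all 3 libraries, with a summed FPKM of 2.24, 1.53 and 2.87.

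Most genes differed little, and more of them were lower than higher in the adult. Of all tested entries, 4541 (37.5%) were higher in the adult at any size, and the median difference was -0.10 on the log2 scale. At least 2-fold higher were 65 entries (0.536%) and at least 2-fold lower 148 (1.22%). At least 1.5-fold higher were 315 (2.60%) and at least 1.5-fold lower 805 (6.64%). The interval of the reads lay above 1 for 2023 entries (16.7%) and below 1 for 4190 (34.6%). Abundant genes leaned the other way. Among 1287 entries with a mean over 50 FPKM, 55.2% were higher in the adult, against 31.6% of 4448 entries between 1 and 5 FPKM.

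The lean toward lower values depends on how the libraries are scaled. Higher entries made up 30.5% of those at least 2-fold apart, but 43.1% after scaling by median-of-ratios size factors and 48.4% after quantile normalization. At 1.5-fold the share was 28.1%, and 48.9% and 48.5% on those scales. Size factors raised all differences by about 0.10, so that the median of all genes was 0.00. Beside the counts of higher and lower members, most lists below are therefore given with the number above the median of all tested genes, which a common scaling factor leaves nearly as it is.

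**Figure D1:**
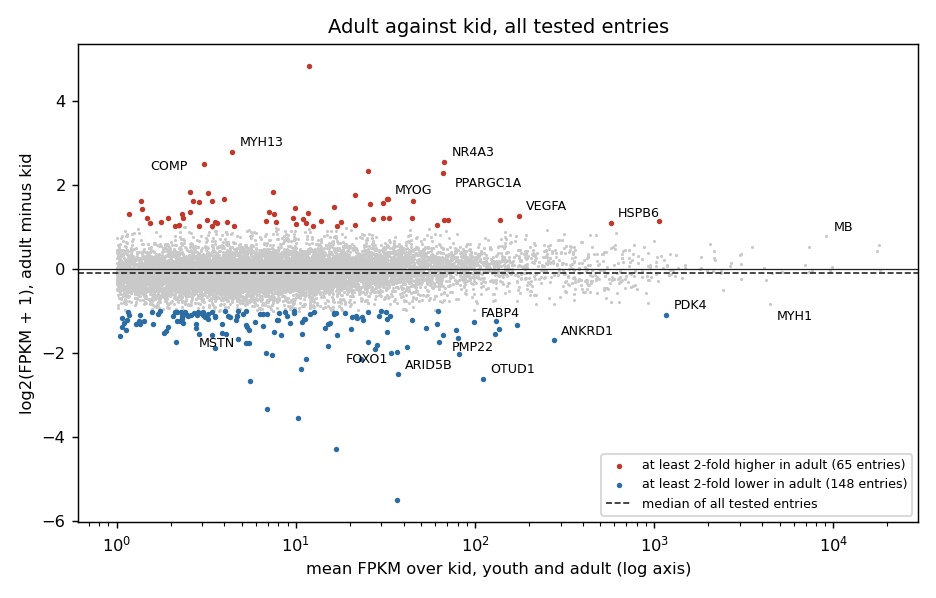
Each point is a tested entry, with its mean FPKM over the 3 libraries on a log axis and its difference of log2(FPKM + 1), adult minus kid, on the vertical axis. The 65 entries at least 2-fold higher are red and the 148 at least 2-fold lower are blue, and the dashed line marks the median of all tested entries at -0.10.

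Nearly all subunits of the respiratory chain were higher in the adult. Complex I feeds electrons from NADH into the chain. Of 37 entries named as its subunits, 35 were higher in the adult and 36 lay above the median of all genes, with a median difference of 0.31. All 8 tested subunits of complex III were higher (median 0.33), as were 11 of 13 of complex IV (median 0.39) and 14 of 16 of the ATP synthase (median 0.22). Above the median of all genes lay all 8, 11 of 13 and all 16 of them. These differences were broad and small. Only 1 subunit each of complexes I and III and the ATP synthase, and 2 of complex IV, passed 1.5-fold, and none in these lists passed 2-fold.

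NDUFA7, an accessory subunit, had the largest difference in complex I, with 115.6 FPKM in the kid, 110.7 in youth and 190 in the adult. It was 1.65-fold higher in adult than in kid (95% interval 1.52 to 1.79). NDUFV1, which carries the NADH binding site, went from 130 in kid through 115.5 in youth to 187 in adult. NDUFA4, the most abundant member of the list at 866, 671 and 1023 FPKM, was 1.18-fold higher (1.15 to 1.22). Its place in complex I was taken from the product name alone. The 2 members that were lower in the adult were NDUFA3 (152, 103 and 122 FPKM) and NDUFB3 (175, 138 and 167).

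In complex III the Rieske iron-sulfur subunit UQCRFS1 stood furthest apart, at 332.5 FPKM in the kid, 328 in youth and 517 in the adult, a 1.55-fold difference (1.502 to 1.61). Complex IV, cytochrome c oxidase, has subunits with a muscle form and a form found in other tissues. COX7A1, the heart and muscle form, stood at 96.1, 87.5 and 160 FPKM, and COX7A2, the other form, at 65.3, 56.0 and 117. Both were higher in the adult, by 1.66-fold (1.56 to 1.77) and 1.79-fold (1.61 to 1.99). COX6A2, another muscle form and among the abundant subunits at 842, 652 and 927 FPKM, was only 1.10-fold higher. Entries named cytochrome c oxidase subunit 4 isoform 1-like differed in direction. The most abundant of the list (760, 795 and 1087 FPKM) was 1.43-fold higher, and another (119, 50.2 and 92.9) was 1.28-fold lower. How reads were divided between them is not given, so their single values are uncertain. Of the genes for the c ring of the ATP synthase, ATP5G1 (350, 298 and 542 FPKM) and ATP5G3 (314, 260 and 453) were 1.55-fold and 1.44-fold higher, while ATP5G2 (568.5, 487 and 581) was 1.02-fold higher.

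Upstream of the chain, 18 of 19 citrate cycle enzymes were higher in the adult and all 19 lay above the median of all genes (list median 0.26). IDH3A, the catalytic subunit of NAD-dependent isocitrate dehydrogenase, stood at 55.5 FPKM in the kid, 54.7 in youth and 82.2 in the adult. SDHA, which joins the cycle to the chain as a subunit of complex II, stood at 283, 259 and 400. Their ratios were 1.48 (1.41 to 1.56) and 1.41 (1.38 to 1.45). The machinery that makes and fills mitochondria was shifted the same way. Of 70 mitochondrial ribosomal proteins 56 were higher and 63 lay above the median of all genes (list median 0.18). Of 22 import proteins 18 were higher and 21 lay above it (0.30). TOMM40, the channel of the outer membrane, had 26.6, 29.5 and 43.5 FPKM. The carriers of the inner membrane were more divided, with 25 of 41 higher, 16 lower and a median of 0.155. SLC25A4, the ADP/ATP carrier of muscle, stood at 1836, 1513 and 2778 FPKM, and the uncoupling protein UCP3 at 84.3, 67.2 and 127. Its relative UCP2 was 1.68-fold lower, at 5.40, 4.79 and 3.22.

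Fatty acid oxidation was not shifted to the same extent. Of 27 enzymes 18 were higher in the adult and 21 lay above the median of all genes (list median 0.10). ECI2, an isomerase for unsaturated fatty acids, was 1.61-fold higher (36.4, 36.4 and 58.7 FPKM; interval 1.48 to 1.76). The medium-chain acyl-CoA dehydrogenase entry was 1.28-fold lower, at 165 FPKM in the kid, 98.2 in youth and 129 in the adult. HADHB, a subunit of the mitochondrial trifunctional protein, was also lower, at 291, 194 and 253. The glycolytic enzymes had a median of 0.06, with 11 of 17 higher and 15 above the median of all genes. The most abundant of them, ALDOA, stood at 9622, 9933 and 9261 FPKM. The only one past 1.5-fold was HK2, the regulated muscle hexokinase, at 8.12, 10.99 and 16.5 FPKM, a 2.03-fold difference (1.85 to 2.24). Outside glycolysis proper, PFKFB3, whose product raises the activator of phosphofructokinase, was 2.80-fold lower, at 73.97 FPKM in the kid, 135 in youth and 26.5 in the adult.

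**Figure D2:**
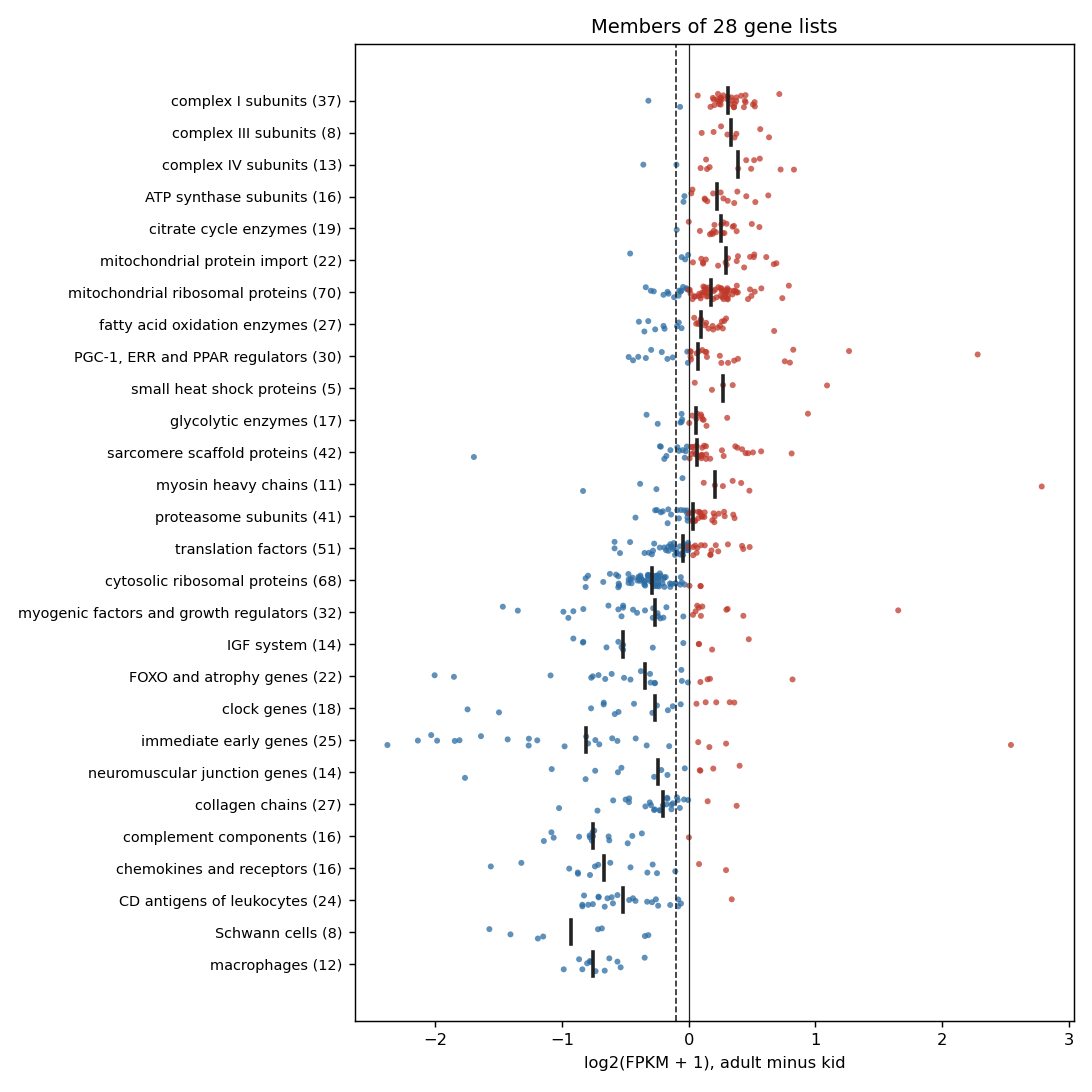
Each point is a member of a gene list, with the number of tested members in brackets, placed by its difference of log2(FPKM + 1), adult minus kid (red higher, blue lower, vertical scatter without meaning). Black bars are list medians and the dashed line is the median of all tested entries. The respiratory complexes lie at 0.22 to 0.39, the cytosolic ribosomal proteins at -0.29, and immediate early, complement, macrophage and Schwann cell genes at -0.75 or below.

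The regulators of mitochondrial content were split between a few large differences and many small ones. PPARGC1A, which encodes PGC-1 alpha, stood at 26.1 FPKM in the kid, 43.3 in youth and 130.5 in the adult, a ratio of 5.005 (4.79 to 5.24). The ERR receptors, its partners on mitochondrial promoters, were all higher. ESRRA stood at 45.7, 36.3 and 80.3 FPKM, ESRRG at 12.2, 3.40 and 21.4, and ESRRB at 2.96, 3.47 and 6.01. Their ratios were 1.76, 1.75 (1.605 to 1.91) and 2.03 (1.52 to 2.76). VEGFA, a vessel growth factor, went from 120 FPKM in kid and 115 in youth to 291 in adult, a 2.42-fold difference (2.34 to 2.50).

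The other regulators described here differed by less than 1.5-fold. PPARGC1B, the paralogue of PPARGC1A, was 1.36-fold higher (6.43, 5.14 and 8.73 FPKM). TFAM, the packaging factor of mitochondrial DNA, stood at 11.5, 11.6 and 11.6, and the nuclear respiratory factor NRF1 at 5.51, 3.75 and 4.62. SIRT1, a deacetylase that acts on PGC-1 alpha, was 1.45-fold lower (8.39, 7.30 and 5.77 FPKM). In all, 20 of 30 listed regulators were higher, 5 of them by at least 1.5-fold, and none was lower by 1.5-fold. The list median was 0.07, and 22 members lay above the median of all genes.

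Cytosolic ribosomal proteins were lower as a family. Of 68 members 65 were lower in the adult, with a median of -0.29, and 7 lay above the median of all genes. Their summed FPKM went from 39710 in kid through 34676 in youth to 32250 in adult. RPS29 stood at 1269, 793 and 723 FPKM, a 1.76-fold difference (1.69 to 1.83), and RPL26 at 750, 536 and 432. RPL3 was 1.77-fold lower (132, 100.2 and 74.9 FPKM). Of the 3 higher members none reached 1.5-fold, and RPLP1 stood at 1126, 1098 and 1132 FPKM. Ribosomal protein genes are known for near-identical copies, and the entry 102190429, 40S ribosomal protein S25-like, had 0.257, 0.409 and 34.7 FPKM. Sharing of reads among such copies is not described in the sources used here, so single members are uncertain.

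Translation factors did not share this shift, with 17 of 51 higher and a median of -0.04, which is above that of all genes. The elongation factor 1 alpha genes differed in opposite directions. EEF1A2, the form of adult muscle and neurons, stood at 1925, 1985 and 2579 FPKM and was 1.34-fold higher (1.32 to 1.36). EEF1A1, the form of most other tissues, stood at 729, 635 and 486 FPKM and was lower, with an interval of 1.47-fold to 1.53-fold. A common scaling factor leaves the ratio of EEF1A2 to EEF1A1, which was larger in the adult, as it is.

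Contractile protein families held members that differed in opposite directions. Among the fast myosin heavy chains, the motor proteins of the thick filament, MYH1 (type IIX) stood at 4693 FPKM in the kid, 5942 in youth and 2636 in the adult, and MYH2 (type IIA) at 3054, 2248 and 3887. MYH1 was 1.78-fold lower (1.77 to 1.80) and MYH2 was 1.27-fold higher (1.27 to 1.28) in adult than in kid. In kid and youth MYH1 had the higher level, and in adult MYH2 did. MYH4 (type IIB) did not pass the filter, at 1.63, 1.06 and 0.219 FPKM. MYH13, known from extraocular muscle, was nearly absent in kid (0.0758 FPKM) and stood at 6.79 in youth and 6.42 in adult. The developmental chains MYH3 (6.05, 5.74 and 8.83 FPKM) and MYH8 (1.49, 1.63 and 2.00) were low throughout. Sarcomeric myosin genes are known to be alike in sequence, so the split of reads among them is uncertain.

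Of 11 troponins and tropomyosins, which regulate the thin filament, 5 were higher and 6 lower. Furthest lower were an entry without a symbol (3.20, 2.83 and 0.895 FPKM) and TPM4, a cytoskeletal tropomyosin, which was 1.58-fold lower at 62.9, 78.0 and 39.9 FPKM. TPM2, the beta tropomyosin, stood at 6251, 6630 and 8990 FPKM, and fast troponin T, TNNT3, at 2945, 3368 and 4212. Each was 1.43-fold to 1.44-fold higher. The markers of slow fibres summed to 20090, 19627 and 20396 FPKM, and those of fast fibres to 40732, 40343 and 40326. The thin filament actin ACTA1 was the most abundant entry of the adult library, at 14480, 17994 and 21435 FPKM, a 1.48-fold difference. The creatine kinase CKM was next, at 14183, 19069 and 18998, and the oxygen store myoglobin, MB, stood at 7025, 8234 and 12064.

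Among 42 sarcomere scaffold proteins 30 were higher in the adult and 36 lay above the median of all genes (list median 0.07). XIRP1, an actin-binding repair protein, stood at 338, 490.5 and 594 FPKM, a 1.76-fold difference (1.74 to 1.78). Stretch-responsive ankyrin repeat proteins of the I band differed in opposite directions. ANKRD1 stood at 475.5 FPKM in the kid, 202 in youth and 146 in the adult and was 3.25-fold lower (3.15 to 3.35). ANKRD2 stood at 110, 44.8 and 157 FPKM and was 1.43-fold higher. All 5 tested small heat shock proteins, chaperones of desmin and actin, were higher, with a median of 0.27. HSPB6 led them at 422, 397 and 901 FPKM, a 2.13-fold difference (2.08 to 2.19), and CRYAB, the most abundant, stood at 1197, 956 and 1524.

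**Figure D3:**
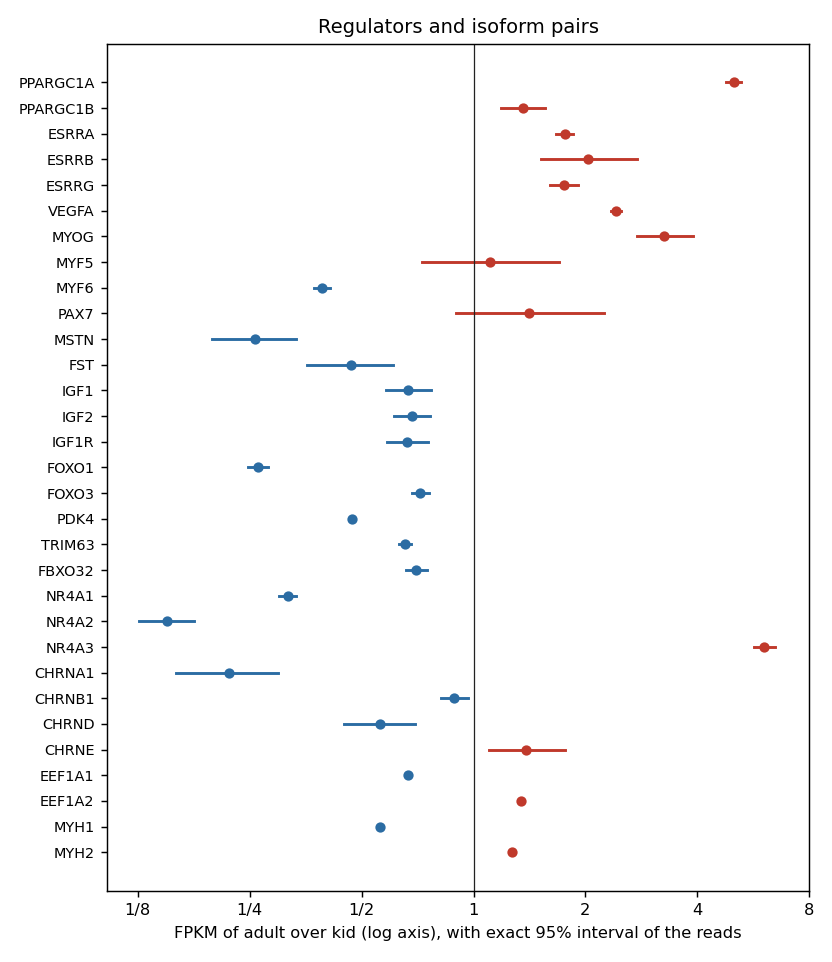
Each point is the ratio of FPKM, adult over kid, on a log axis, and each bar is the exact 95% interval of the reads of these 2 libraries (red above 1, blue below). The bars of PAX7 and MYF5 cross 1. PPARGC1A, NR4A3 and MYOG are furthest to the right, and NR4A2, CHRNA1, MSTN and FOXO1 furthest to the left. Bars of abundant genes are shorter than their points.

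Regulators of muscle identity and growth held large differences in both directions. Of 32 members 10 (31.2%) were higher in the adult, against 37.5% of all tested entries, and 11 lay above the median of all genes. MYOG, which drives the fusion and differentiation of myoblasts and is held low by nerve activity in mature fibres, was the only member at least 1.5-fold higher, at 19.03 FPKM in the kid, 17.0 in youth and 62.0 in the adult. It was 3.26-fold higher (2.75 to 3.88). MYF6, the related factor of mature fibres, went the other way, from 247.3 through 167 to 96.6 FPKM, a 2.56-fold difference (2.44 to 2.69). MYF5 (1.91, 1.98 and 2.12 FPKM) and the satellite cell factor PAX7 (1.40, 0.901 and 1.97) were low, and the interval of PAX7 spanned 0.897 to 2.24.

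Secreted regulators of muscle mass were lower on both sides of the balance. MSTN, the growth inhibitor myostatin, stood at 6.11 FPKM in the kid, 8.81 in youth and 1.57 in the adult, a 3.88-fold difference (3.01 to 5.04). Its antagonist follistatin, FST, stood at 9.37, 5.09 and 4.37 FPKM and was 2.14-fold lower. The growth factors IGF1 (23.8, 12.4 and 15.9 FPKM) and IGF2 (36.1, 44.7 and 24.7) were 1.498-fold and 1.46-fold lower. Their receptor IGF1R stood at 8.405, 7.68 and 5.58. The binding proteins IGFBP3 (22.6, 14.01 and 11.6 FPKM) and IGFBP5 (34.6, 46.8 and 19.1) were lower by 1.95-fold and 1.82-fold, and the most abundant, IGFBP6, was not (99.5, 84.4 and 105.4). Of 14 members of the IGF system 10 were lower, with a median of -0.52, and 5 lay above the median of all genes. In the TGF-beta family 24 of 31 were lower and 11 lay above it, led by the signal carrier SMAD3 at 20.3, 18.4 and 9.71 FPKM.

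Genes of the FOXO and atrophy program were lower in 18 of 22 cases, 8 of them by at least 1.5-fold (median -0.34), and 7 lay above the median of all genes. FOXO1 stood at 54.3 FPKM in the kid, 56.2 in youth and 14.3 in the adult, a 3.79-fold difference (3.56 to 4.03), while FOXO3 was 1.39-fold lower (34.4, 38.6 and 24.7 FPKM). PDK4, which blocks the entry of pyruvate into mitochondria, stood at 1366, 1498 and 642 FPKM. The muscle ubiquitin ligases TRIM63 (257, 644 and 168) and FBXO32 (191.5, 194 and 134) were 1.53-fold and 1.43-fold lower. CDKN1A, a cell cycle inhibitor, was 4.20-fold lower at 65.9, 20.5 and 15.7 FPKM. The median difference of youth from kid was 0.03, with 7 of the 22 youth values between kid and adult. GADD45A, a stress gene of denervated muscle, was the member furthest higher (13.6, 16.0 and 24.8 FPKM). The proteasome, which degrades what the ligases mark, had 24 of 41 subunits higher, 33 above the median of all genes and a median of 0.04.

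Immediate early genes, which respond to stimuli within minutes, held many of the lowest values. Of 25 members 21 were lower in the adult, 17 by at least 1.5-fold and 11 by at least 2-fold (median -0.81), and 4 lay above the median of all genes. FOS stood at 149 FPKM in the kid, 61.0 in youth and 35.7 in the adult, a 4.17-fold difference (3.93 to 4.43). The related FOSL2 stood at 58.2, 37.3 and 13.98 FPKM. JUN, the most abundant at 327, 362 and 244.7, was 1.34-fold lower. In the NR4A receptors, orphan nuclear receptors induced by exercise and stress, NR4A1 (125.2, 75.6 and 39.6 FPKM) and NR4A2 (18.7, 10.4 and 2.80) were lower. NR4A3 was higher, at 20.4 FPKM in the kid, 58.2 in youth and 124 in the adult. Its ratio was 6.06 (5.69 to 6.46). Among the 12 genes furthest higher only MYH13 had a larger difference of log2(FPKM + 1), though not only MYH13 had a larger ratio.

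Genes of the circadian clock, which also follow the hour of sampling, also differed between these libraries. The hour of sampling is not given in the labels, and its part in these results was not tested. PER1 stood at 83.3, 81.1 and 24.2 FPKM, a 3.45-fold difference (3.27 to 3.63), and the repressor CIART at 9.49, 10.6 and 2.72. The activator ARNTL stood at 4.21, 2.17 and 5.70. Of 18 clock genes 5 (27.8%) were higher in the adult, against 37.5% of all tested entries. Of 10 tested Krüppel-like factors 9 were lower and 1 lay above the median of all genes, among them KLF4 at 46.4, 30.4 and 19.7 FPKM.

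**Figure D4:**
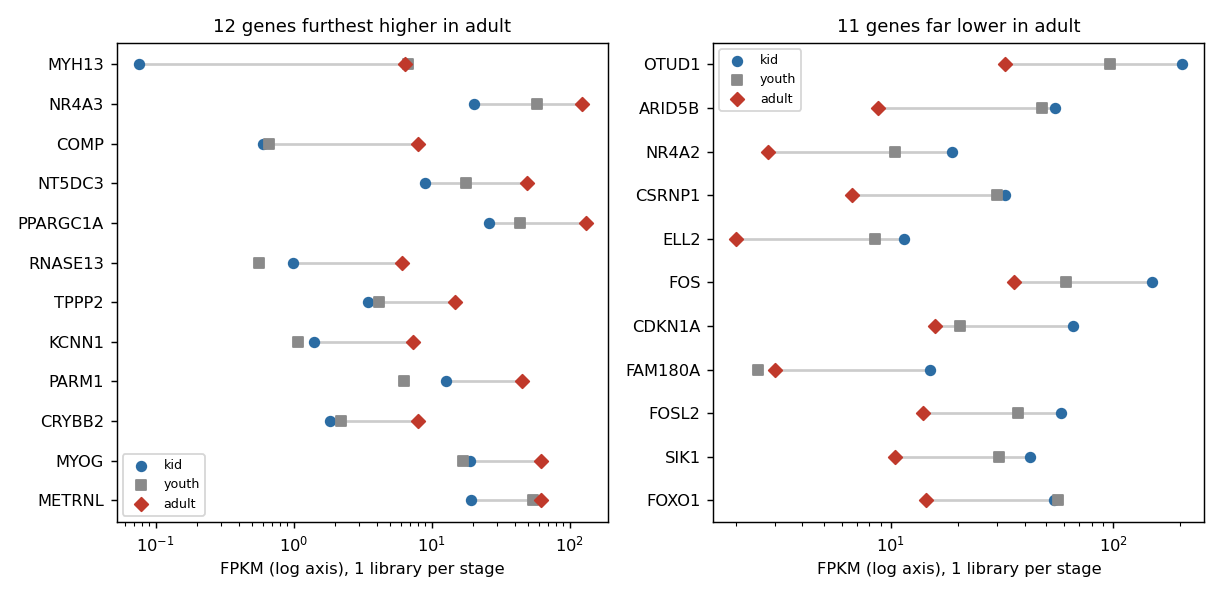
FPKM in kid (blue circle), youth (grey square) and adult (red diamond) on a log axis for the 12 genes with the highest difference and 11 of the 12 with the lowest, among those with at least 5 FPKM in adult or kid. In the panel of higher genes 4 youth values lie below the kid value, and in the panel of lower genes 9 of the 11 youth values lie between kid and adult.

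At the neuromuscular junction, the synapse of motor nerve and fibre, 4 of 14 genes (28.6%) were higher, against 37.5% of all tested entries, and 4 were lower by at least 1.5-fold. The acetylcholine receptor has alpha, beta, delta and, in mature muscle, epsilon subunits. CHRNA1 stood at 9.38 FPKM in the kid, 4.44 in youth and 2.06 in the adult, a 4.56-fold difference (3.35 to 6.31), and CHRND at 9.70, 5.60 and 5.42. CHRNE, the mature subunit, was 1.39-fold higher (4.83, 5.82 and 6.71 FPKM; interval 1.10 to 1.76). CHRNG, its fetal counterpart, was low at 0.983, 1.75 and 0.643. The agrin receptor LRP4 (4.76, 3.20 and 1.73 FPKM) and the kinase MUSK (1.89, 0.7495 and 0.647) were lower as well. RAPSN, the most abundant member of the list, was not lower, at 28.3, 24.25 and 30.2 FPKM (interval 0.959 to 1.18). In all, 5 of the 14 genes lay above the median of all genes. MUSK passed the filter through the kid library, where it was high.

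Markers of Schwann cells, the glia that wrap motor axons, were lower in all 8 tested cases, and none of them lay above the median of all genes. Their median of -0.93 was the lowest of any list with at least 5 tested members. PMP22 stood at 102 FPKM in the kid, 63.3 in youth and 33.6 in the adult, a ratio of 3.03 (2.83 to 3.25). It is a membrane protein of compact myelin. The summed FPKM of all 14 listed Schwann cell markers, tested or not, was 255, 153.5 and 107. In whole muscle, fewer cells of a type and less RNA per cell cannot be told apart.

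Immune genes were lower across several families. All 12 tested macrophage markers were lower, also relative to the median of all genes, 9 of them by at least 1.5-fold. The sum over all 14 listed, tested or not, was 112, 117 and 62.4 FPKM. TYROBP, an adaptor of myeloid receptors, stood at 7.91, 6.79 and 3.50, and LAPTM5 at 20.8, 19.4 and 11.5. Of 16 complement genes 15 were lower and 12 passed 1.5-fold (median -0.76), with 1 above the median of all genes. C1R, a protease that starts the cascade, stood at 24.6, 14.4 and 11.3 FPKM, and the entry named C3, the central component, at 29.5, 27.8 and 12.8. Of 16 chemokines and receptors 14 were lower and 2 lay above the median of all genes, with CCL21, which guides lymphocytes into lymph vessels, at 19.8, 18.2 and 7.32 FPKM. Of 24 leukocyte CD antigens 23 were lower and 4 lay above it. Several of these lists share genes, such as C1QA and CD74, and are not independent. Of 19 lymphocyte markers 6 passed the filter, and all 6 were lower. The interval of the reads lay below 1 for 3 of them, and 1 lay above the median of all genes. The sum over all 19 was 19.6, 23.0 and 12.1 FPKM.

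Histocompatibility genes were mostly lower, in 18 of 22 cases (median -0.39), and 5 lay above the median of all genes. The most abundant class I entry stood at 512, 411 and 418 FPKM. A further class I entry had 44.5 FPKM in the kid, 65.4 in youth and 0 in the adult, at least 88.7-fold lower against a floor of 3 reads, and another had 6.58, 3.21 and 19.8. All of these entries carry the same product name, and how reads were divided among them is not given in the labels, so their single values are uncertain. CD74, the chain that escorts class II molecules, stood at 86.4, 96.2 and 52.4 FPKM. Interferon-induced genes did not share the size of these differences, with 30 of 39 lower but a median of -0.15, 17 above the median of all genes and 1 lower by 1.5-fold. ISG15, a ubiquitin-like protein made under interferon, stood at 4.69, 21.6 and 4.62 FPKM.

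Connective tissue genes were modestly lower. Of 27 collagen chains 25 were lower in the adult, with a median of -0.20, 3 passed 1.5-fold and 7 lay above the median of all genes. The fibril collagens COL1A1 (113, 183 and 106 FPKM) and COL3A1 (221, 378.5 and 192) were highest in youth and 1.06-fold and 1.15-fold lower in adult than in kid. COL14A1, which coats fibrils, was 2.16-fold lower (16.5, 13.9 and 7.63 FPKM). Of 39 proteoglycans and matrix glycoproteins 29 were lower and 13 lay above it (list median -0.27), with DCN, the most abundant, at 416, 370 and 341.5 FPKM and THBS1, an activator of TGF-beta, at 34.4, 16.7 and 14.8. Fibroblast markers were lower in 14 of 15 cases, at a sum of 1251, 1484 and 1057 FPKM.

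Of 8 tested markers of tendon and cartilage 6 (75%) were higher in the adult, against 37.5% of all tested entries. The list median was 0.35, and 6 members lay above the median of all genes. COMP, a matrix protein of tendon and cartilage, stood at 0.600 FPKM in the kid, 0.667 in youth and 7.96 in the adult, a 13.3-fold difference (8.54 to 21.7). TNMD, a surface protein of tendon cells, stood at 1.51, 0.250 and 5.15 FPKM. Both passed the filter through the adult library, where they were high. Of the more abundant markers, THBS4 (59.9, 55.0 and 83.9 FPKM) and FMOD (10.9, 8.61 and 15.5) were higher, and KERA (10.4, 12.4 and 7.13) and CHAD (4.67, 6.69 and 3.33) lower. Of the markers below the filter, COL2A1 (0.717, 0.367 and 0.255), MKX (0.924, 0.511 and 0.779), SOX9 (1.01, 0.459 and 0.992) and COL9A1 (0.1296, 0.0393 and 0.0637) were not higher in the adult. COL11A1 (0.4635, 0.204 and 0.617), MATN3 (0.325, 0.1295 and 0.35) and ACAN (0.00935, 0.0397 and 0.0402) were higher.

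Markers of fat cells did not share a direction, with 10 of 18 lower and 9 above the median of all genes. The sum over all 22 listed, tested or not, was 729, 545 and 584 FPKM. The markers furthest apart were lower. FABP4, a carrier of fatty acids, stood at 161 FPKM in the kid, 68.7 in youth and 65.8 in the adult, a 2.44-fold difference (2.17 to 2.76). ADIPOQ, the hormone adiponectin, stood at 64.3, 24.3 and 32.4, and PLIN1, the coat of fat droplets, at 13.3, 2.72 and 8.61. Furthest higher were the lipid synthesis enzymes AGPAT2 (12.8, 13.0 and 16.6 FPKM) and DGAT2 (22.4, 29.5 and 28.7), by 1.30-fold and 1.28-fold. Of endothelial markers 5 of 14 (35.7%) were higher, and of smooth muscle markers 6 of 14 (42.9%), against 37.5% of all tested entries. Genes of mitosis and DNA replication were at low levels, with 19 of 43 tested. Of these 8 (42.1%) were higher and 11 lower, and 9 lay above the median of all genes. PCNA, the member furthest lower, stood at 10.8, 8.54 and 6.50 FPKM.

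**Figure D5:**
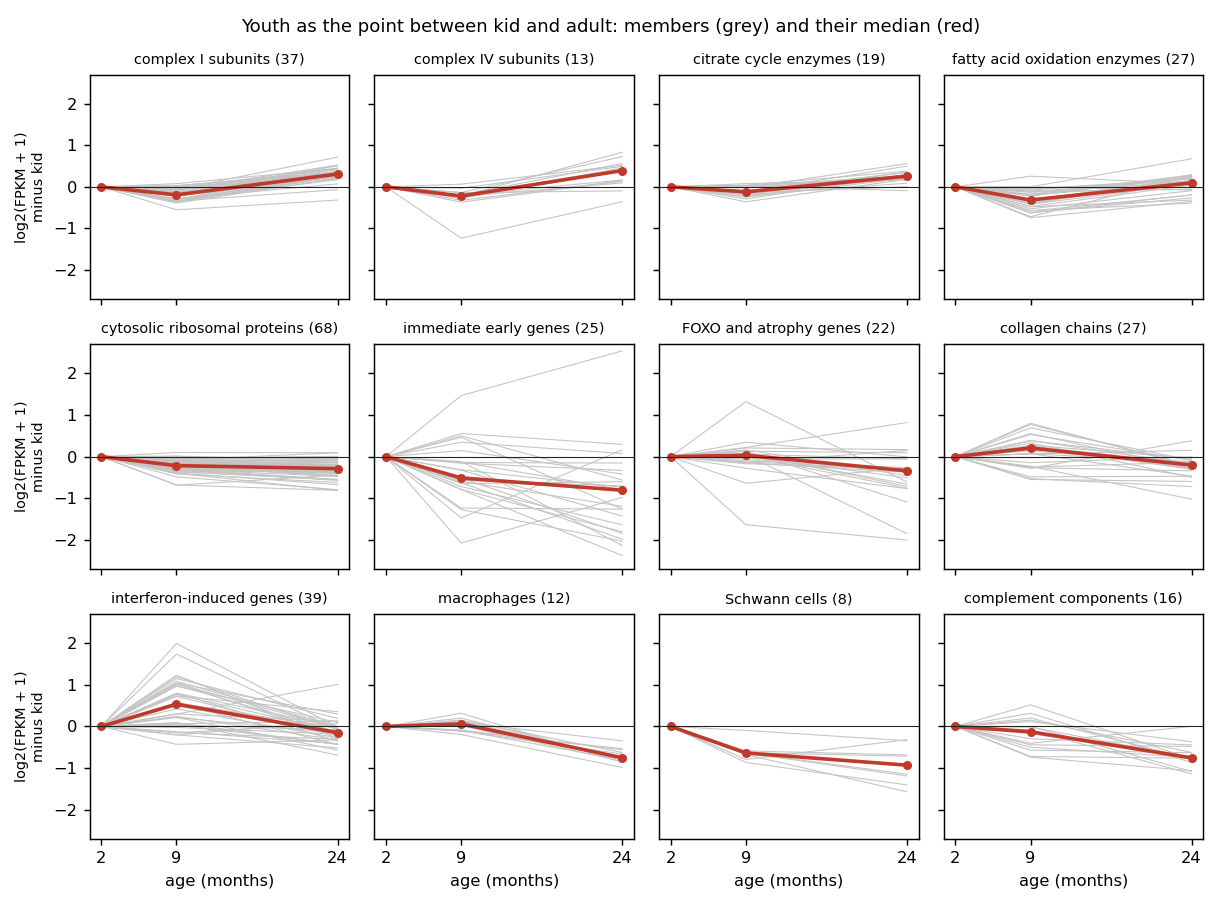
Each grey line is a list member and the red line the list median of log2(FPKM + 1) minus its kid value, at 2, 9 and 24 months. In complexes I and IV, the citrate cycle and fatty acid oxidation the youth median lies below kid while the adult lies above it. The youth median of all tested entries, not drawn, was -0.08. In ribosomal, immediate early, Schwann cell and complement genes youth lies between, and collagen and interferon-induced genes peak in youth.

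The youth library did not lie between kid and adult to the same extent in every group. Among the 148 genes at least 2-fold lower in the adult, youth lay between for 116 (78.4%), nearer to kid in 69 and nearer to adult in 47. Among the 65 genes at least 2-fold higher it lay between for 33 (50.8%), and in 25 the youth value was below that of kid. Kid and adult values also chose these genes, so the shares are descriptions.

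For the oxidative lists the net difference hides a lower youth value. Complex I had 4 of 37 members with youth between kid and adult, and complex III had 0 of 8. Median differences of youth from kid were -0.19 in complex I, -0.22 in complex IV and -0.32 in fatty acid oxidation. Over all tested entries this median was -0.08, so a part of each lower value is shared by all genes. The citrate cycle, at -0.12, lay close to it. For 50 of 68 ribosomal proteins, 17 of 25 immediate early genes and 7 of 8 Schwann cell markers, youth lay between. Among all entries at least 1.5-fold lower, youth lay between for 581 of 805 (72.2%), so these counts are not particular to the lists. Only 5 of the 68 ribosomal proteins were that far apart. Among all entries at least 1.5-fold higher, youth lay between for 160 of 315 (50.8%). Macrophage markers were near their kid level in youth, with a median of 0.06, and lower in adult.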

How the data were processed

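RNA-seq libraries of longissimus dorsi from 3 ages were used, 1 per age. The authors deposited 1 table of FPKM values per gene entry, with a column for each age. Per the submitters' processing notes, FastQC, TopHat2 and DESeq are named, without a version or role. The build, the annotation and the way reads matching several genes were counted were not given in the sources used here. Since FPKM divides by the library's reads, very abundant genes can shift all others.

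Whole reads were recovered from the steps of the FPKM values, for all 17211 entries above 0 in at least 2 libraries, within 5e-05 of a read. The read total of each library was inferred from the FPKM values in the same way. Recovered reads made up 95.3%, 94.9% and 96.3% of these totals. For a gene 1 kb long, the 3-read floor came to 0.190, 0.201 and 0.163 FPKM. Reads and lengths can share a factor, which returns fewer reads and a wider interval. Ratios carry exact conditional binomial (Clopper-Pearson) 95% intervals. PCR copies are not independent molecules, so intervals and floors cover counting error only.

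Symbols came from a RefSeq gene table of assembly ARS1.2, used for names only, which matched 21743 entries by gene number. No coordinates or sequences were used. The 106 gene lists, 26 main, 66 families and 14 of markers, were matched by product text and symbol. Members and lists were chosen with earlier results of these data known, and their search terms were fitted to the wording of the table after it was seen. Families were described where at least 5 members were tested with at least 75% on 1 side or 20% at 1.5-fold. The members of potassium channels and phosphatase regulators in the closing observations fall outside that rule and were chosen after their values were seen. The carriers of the inner membrane and PFKFB3, from a list of glucose uptake and glycogen genes, also fall outside it.

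The rule for named genes took the 12 highest and 12 lowest differences (symbol known, 5 FPKM or more in adult or kid). It took from each described list the most abundant member and up to 3 per direction furthest apart, at 1.25-fold or more and the same level. It added a set of 24 genes and the 5 most abundant of the adult and of the kid. Other genes the text names, marker genes included, such as NDUFA3, ESRRA, PPARGC1B, NR4A1, FOXO3 and LRP4, were chosen after their values were seen. Python 3.11.15, numpy 2.4.6, pandas 2.3.3 and scipy 1.17.1 were used, and the steps were tested on simulated reads. Some genes that the rule names are not reported here.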

Additional observations from a re-analysis of the deposited data

How the results depend on the processing

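With 1 library per age, no spread between animals is known, and all values describe these libraries. A pseudocount of 0.1 gave 116 entries at least 2-fold higher, 335 lower, and 478 and 1351 at 1.5-fold. A pseudocount of 5 gave 26, 45, 145 and 247, and a mean of at least 5 FPKM 38, 84, 208 and 438, where fewer entries were tested. Size factors gave 525 higher at 1.5-fold, and quantile normalization 482 higher and 511 lower. The share of all entries higher in the adult became 50.1% with size factors, past the midpoint, and 49.8% with quantile normalization. It was 40.9% at a mean of at least 5 FPKM, 32.8% with equal sums and 38.6% with equal sums without the 50 most abundant genes. The causes of these shifts were not tested. Over the 9 alternatives, the share of members higher in the adult stayed within its counting interval in 221 of 234 cases for the 26 main lists, and none of these with at least 75% on 1 side crossed the middle. For 36 family and marker lists, an alternative chosen after seeing the data, the share stayed within the interval in 310 of 323. The Notch list crossed, from 18.2% to 54.5% with size factors and with quantile normalization. Among main lists median signs flipped in translation factors, the proteasome, myosin light chains, troponins and tropomyosins, and calcium handling genes. Among 2444 values of named genes none at least 1.5-fold apart changed direction, an outcome nearly fixed in advance. Pseudocounts and filters cannot change a direction. The rescalings put the median of all genes between -0.134 and 0.001, a shift far smaller than 1.5-fold. No paired analysis was possible because each age has 1 library.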

Other observations

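Some families outside the main comparison held single large differences. Potassium channels, which set the excitability of the fibre, had 8 of 22 members higher in the adult, but 3 of them passed 1.5-fold. The calcium-activated channel KCNN1 had 1.40 FPKM in the kid, 1.07 in youth and 7.31 in the adult, a 5.23-fold difference (3.67 to 7.67). KCNC1, a fast repolarizing channel, stood at 1.38, 1.08 and 6.15, and the inward rectifier KCNJ12 at 16.4, 23.2 and 30.2. Among regulators of protein phosphatases 1 and 2, PPP1R27 stood at 737, 812 and 1628 FPKM and the glycogen-targeting subunit PPP1R3D at 6.73, 8.04 and 15.3. METRNL, which encodes a secreted protein of exercised muscle, stood at 19.5, 54.3 and 61.8 FPKM.

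Families of RNA handling were shifted little and mostly downward, close to the median of all genes. Of 52 splicing factors 42 were lower (median -0.15), and 21 lay above the median of all genes. Of 32 RNA helicases 24 were lower (median -0.15), and 13 lay above it. Higher members made up 19.2% and 25%, against 37.5% of all tested entries. Across the alternative settings these shares reached 44.2% and 43.8%. SRSF5 stood at 86.2, 79.2 and 50.4 FPKM. Amino acid transporters differed in both directions, with SLC7A8 at 3.98, 4.77 and 8.13 FPKM and SLC7A2 at 13.3, 18.1 and 6.55. Of the 90 main and family lists with at least 5 tested members, 27 had a median above 0 and 49 a median above that of all tested genes. Of the 65 entries at least 2-fold higher, 19 belonged to any list, as did 50 of the 148 at least 2-fold lower, and 13 and 43 of them had no product or an uncharacterized product.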
